A study of Mus musculus with 4 samples.

Results

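The proteins that fold, check and dispose of secreted and membrane proteins in the endoplasmic reticulum (ER) were followed at the mRNA level in mouse hearts with and without *Jun* in striated muscle. Misfolded protein in the ER lumen draws the chaperone BiP, the product of *Hspa5*, away from the stress sensors ATF6, IRE1 (*Ern1*) and PERK (*Eif2ak3*). ATF6 is then cleaved to a transcription factor, IRE1 splices the *Xbp1* mRNA into its active form, and PERK phosphorylates eIF2-alpha, which slows translation while *Atf4* and, further down, *Ddit3* (CHOP) are made. ATF6 and XBP1 switch on chaperones, oxidoreductases and degradation factors, so that this network is called the unfolded protein response. In heart muscle it is known as a response to pressure overload and ischaemia, and cardiomyocytes keep part of their ER as sarcoplasmic reticulum, where calreticulin and related proteins also handle calcium.

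The network was taken as 36 listed genes, and every probe set whose only annotated gene symbol was one of them was used. That gave 88 probe sets for 36 of 36 genes, out of 45037 probe sets and 18193 genes on the array, and 26 of the 36 genes had more than 1 probe set. By role there were 9 chaperones and co-chaperones, 8 enzymes of disulfide formation, 2 secreted stress-response proteins, 2 translocon subunits, 7 factors of ER-associated degradation, 3 sensors and 5 transcription factors or effectors.

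The hearts came from unstimulated mice, 10 weeks old, whose mixed background was 129/Ola-C57BL/6. *Jun* delta mu mice carried floxed *Jun* alleles and Cre recombinase under the muscle creatine kinase promoter (MCK-Cre), which removes *Jun* in striated muscle, the heart and skeletal muscle, and leaves it in the other cells of the heart. *Jun* f/f mice carried the floxed alleles without Cre, so that the transgene and the loss of *Jun* cannot be told apart. There were 2 arrays of each genotype, 4 in all, from 2 mice of each genotype by the methods, and sex was not stated. The sample records also hold a culture protocol for digested ventricles, but the titles, sources and methods all name hearts, and they were taken as such. In whole-heart RNA, fewer cells of a type and less RNA per cell cannot be told apart.

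*Jun* itself was measured at log2 signals of 7.02 and 7.14 in *Jun* delta mu hearts, against 8.30 and 9.0 in *Jun* f/f hearts (log2 difference -1.57, SE 0.23, adjusted p = 0.896 by limma), and the difference was -1.92 without *Jun* f/f replicate 1. Cardiomyocyte markers such as *Myh6* and *Myl2* were at similar levels on the 4 arrays, with differences of -0.03 to 0.14 over 8 genes, whereas the atrial genes *Sln*, *Myl7* and *Myl4* stood at 8.11, 9.11 and 9.02 on *Jun* delta mu replicate 2 and at 3.81 to 6.03 on the other arrays. One control array differed from the rest: *Jun* f/f replicate 1 had 104 probe sets at a distance of over 2-fold from the other arrays' mean, where the *Jun* delta mu arrays had 33 and 24 and *Jun* f/f replicate 2 had 26. The main results are therefore also given without that array.

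A DNA motif of this network was looked for in the members' promoters, since ATF6 with its partner NF-Y, and XBP1, act through the ER stress response element (ERSE), the letters CCAAT followed after 9 bases of any kind by CCACG. RefSeq windows (GRCm38.p6) of 250 bases before to 50 bases after the start were on hand for 31 of the 36 members. On either strand the ERSE was found in 10 of these 31 promoters (32.3%), against 37 of 27025 gene promoters on the same scale (0.137%). The members were listed as genes of this network, so that this excess describes the list and is no result of these hearts. The 11 matches are printed below in their own 5′ to 3′ direction, with the fixed letters in capitals and the spacer in lower case.
Hspa5: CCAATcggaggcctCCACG
Calr: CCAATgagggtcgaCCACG
Derl3: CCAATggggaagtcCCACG
Hsp90b1, distal match: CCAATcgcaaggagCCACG
Hsp90b1, proximal match: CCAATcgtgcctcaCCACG
Canx: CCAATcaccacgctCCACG
Pdia6: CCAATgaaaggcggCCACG
Ero1lb: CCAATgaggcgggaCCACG
Dnajc3: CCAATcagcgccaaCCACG
Creld2: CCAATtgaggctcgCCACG
Syvn1: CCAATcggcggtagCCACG

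*Hsp90b1* was the only member with a pair of matches. In *Hspa5* the element lay at chr2:34772025-34772043, from -65 to -47 relative to the start, and in *Pdia6* it lay from -98 to -80. The 250 bases before the start are shown for the chaperone genes *Hspa5* (chr2:34771840-34772089, plus strand) and *Hsp90b1* (chr10:86705445-86705694, minus strand), for the oxidoreductase gene *Pdia6* (chr12:17266339-17266588, plus strand), and for *Sdf2l1* (chr16:17132384-17132633, minus strand), the member with the largest difference, in which no ERSE letters were found. Each runs 5′ to 3′ on the gene's strand, and capitals mark the fixed letters of the ERSE on either strand.
Hspa5: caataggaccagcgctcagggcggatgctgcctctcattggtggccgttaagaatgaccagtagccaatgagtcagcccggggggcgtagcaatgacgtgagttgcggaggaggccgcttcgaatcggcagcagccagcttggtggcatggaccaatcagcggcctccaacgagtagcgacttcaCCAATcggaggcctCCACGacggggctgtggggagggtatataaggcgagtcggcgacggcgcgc
Hsp90b1: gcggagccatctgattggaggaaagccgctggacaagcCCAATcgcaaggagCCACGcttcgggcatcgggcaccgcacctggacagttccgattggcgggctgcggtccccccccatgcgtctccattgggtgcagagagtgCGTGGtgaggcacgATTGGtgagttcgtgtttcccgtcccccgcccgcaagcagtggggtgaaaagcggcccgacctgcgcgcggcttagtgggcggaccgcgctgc
Pdia6: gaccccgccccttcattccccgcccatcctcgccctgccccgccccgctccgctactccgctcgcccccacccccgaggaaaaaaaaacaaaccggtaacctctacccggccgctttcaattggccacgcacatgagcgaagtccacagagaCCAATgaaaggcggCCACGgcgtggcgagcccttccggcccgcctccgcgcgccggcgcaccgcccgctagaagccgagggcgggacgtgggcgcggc
Sdf2l1: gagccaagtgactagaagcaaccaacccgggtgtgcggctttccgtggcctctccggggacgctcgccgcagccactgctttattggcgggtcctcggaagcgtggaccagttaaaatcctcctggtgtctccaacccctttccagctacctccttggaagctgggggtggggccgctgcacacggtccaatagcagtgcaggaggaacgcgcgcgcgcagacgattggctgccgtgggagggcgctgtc

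Other motifs were rarer among the members. The related ERSE-II (ATTGG, 1 base of any kind, then CCACG) was found in *Herpud1* and *Dnajb11*, 2 of 31 (6.45%) against 0.0444% of all promoters, and the XBP1 motif TGACGTGG in *Txndc5* alone (0.714% of all promoters). The AP-1 motif TGACTCA, to which Jun-containing dimers bind, was found in *Hspa5* (-182 to -176), *Sec61b* and *Ddit3*, which was 9.68% of the members against 5.95% of all promoters. The cyclic AMP response element TGACGTCA was found in *Ppp1r15a* (2.03% of all promoters) and the amino acid response motif TTGCATCA in *Herpud1* (1.03%). All motifs were searched on both strands; a match is a run of letters and not a measured site of binding.

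Judged by each gene's brightest probe set, all 17 chaperones and folding enzymes had a lower mean in *Jun* delta mu than in *Jun* f/f hearts. Of the 8 sensors, transcription factors and effectors, 2 had a lower mean, and 5 did without *Jun* f/f replicate 1. The 17 stayed lower without that array, which left 1 control array. Over all genes the share with a lower mean was 47.8%, and 49.8% without that array. Some of the 17 were then close to 0, with *Pdia5* at -0.01, *P4hb* at -0.02 and *Hyou1* at -0.03. *Jun* f/f replicate 2 was above both *Jun* delta mu arrays for 15 of the 17, against 33.3% of genes. Past the study's threshold in either direction were 5 of the 17 and 0 of the 8. By the brightest probe set of each gene, 5 of the 36 members (*Hsp90b1*, *Sdf2l1*, *Pdia3*, *Pdia4* and *Pdia6*) were lower by more than 1.3-fold with an unadjusted p under 0.05 in limma, the fold and p that the study used, and 0 were higher. Over all genes the same threshold was passed by 0.786% in the lower and 0.665% in the higher direction. By probe sets, 8 of 88 were past it as lower and 0 as higher, against 0.959% and 0.568% of all probe sets, and these 8 added *Hspa5* and *Sel1l* to the genes named. No probe set on the array had an adjusted p under 0.05 by limma (0 of 45037, with 2326 or 5.16% under an unadjusted 0.05), and the smallest among the members was 0.896. The methods' t-test also gave 0 after adjustment and called 0 members at the study's threshold, against 0.22% of all genes as lower.

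**Figure D1:**
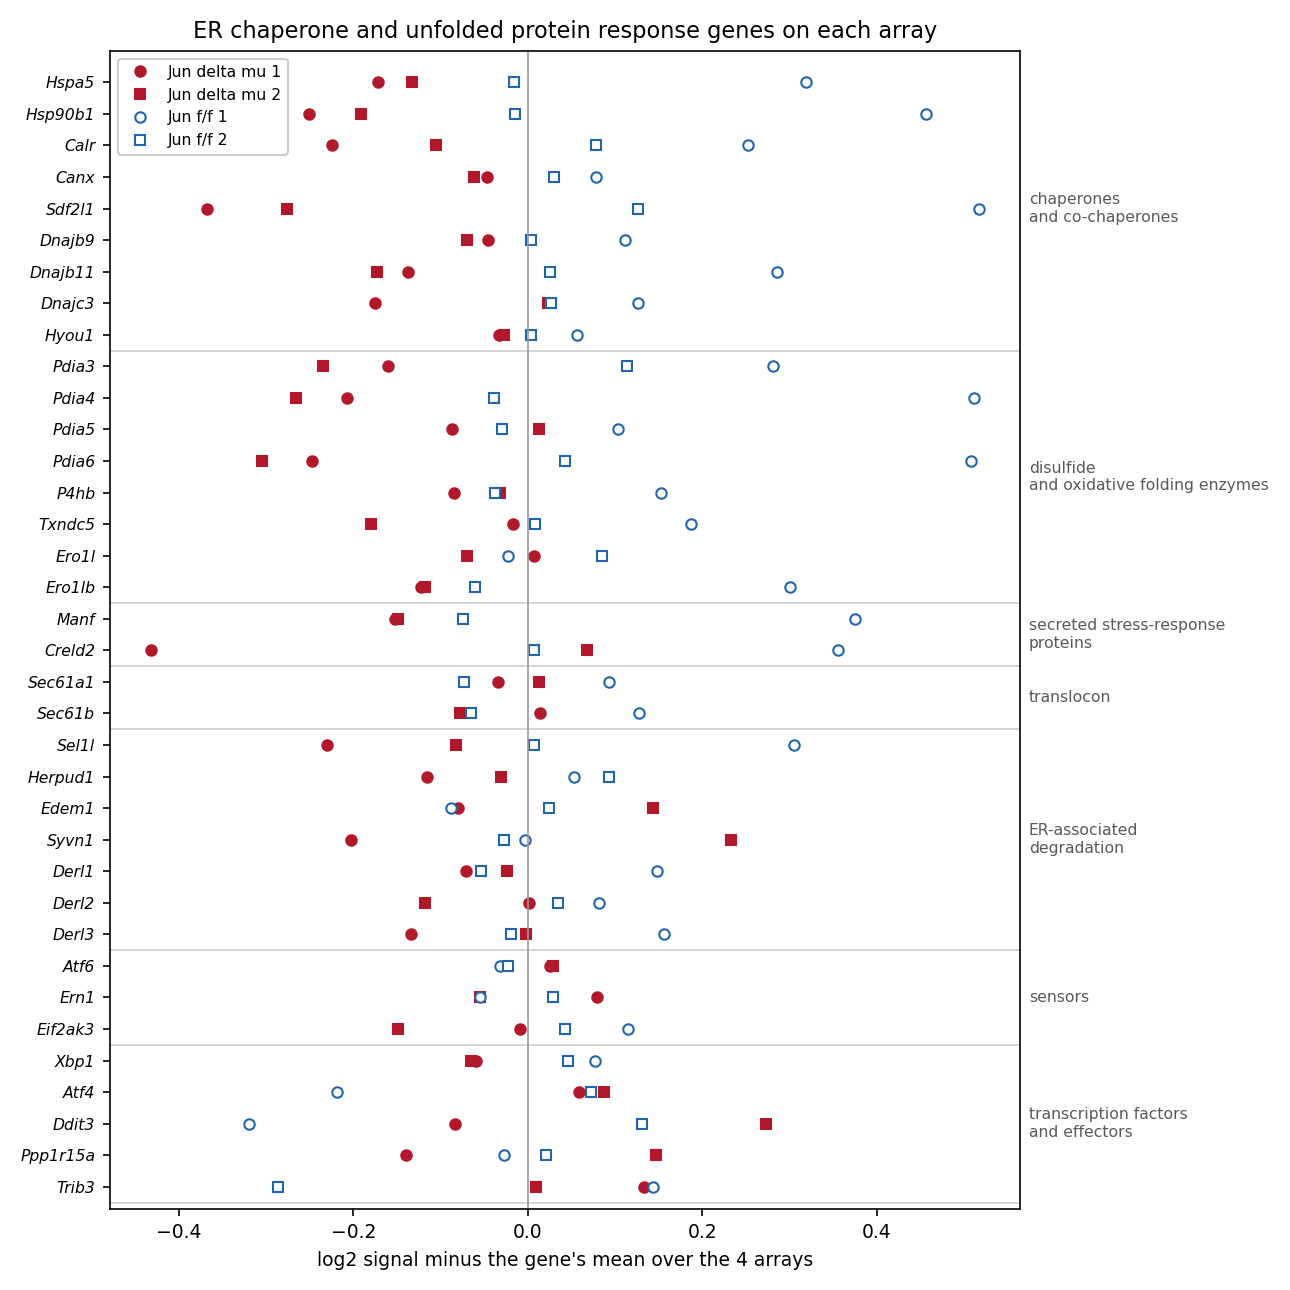
Log2 signal of each of the 36 members by its brightest probe set, as the distance from the gene's mean over the 4 arrays, grouped by role; filled red symbols are the 2 Jun delta mu arrays and open blue symbols the 2 Jun f/f arrays. Most chaperones and folding enzymes have both red symbols on the left and Jun f/f replicate 1 far on the right, and 27 of the 36 genes are highest on that array.

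These 7 genes are also the members that the study picked from the same arrays, so their direction is no independent evidence. The counts and medians of members and of role groups that include them share this limit. Of the 29 others, 0 passed the threshold, 13 had both *Jun* delta mu arrays below both *Jun* f/f arrays, 1 had both above, and the median difference was -0.11 (-0.05 without *Jun* f/f replicate 1). Over all 36 members the median log2 difference was -0.12, against 0.01 over all genes, and 28 of 36 lay below 0, against 47.8% of genes. The genotypes did not overlap for 20 of the 36 with *Jun* delta mu lower, where 15.9% of all genes gave that order, and for 1 with *Jun* delta mu higher (17.8% of genes).

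*Jun* f/f replicate 1 carried a large part of this. It was the highest of the 4 arrays for 27 of the 36 members, against 30.3% of all genes. With it left out, 1 of the 36 members (*Sdf2l1*) passed the threshold as lower, against 0.962% of genes, and 2 of the 88 probe sets did, against 1.19% of probe sets. The count also depended on the others: 2 members passed as lower without *Jun* delta mu replicate 1 (0.874% of genes) and 2 without *Jun* delta mu replicate 2 (0.715%), where *Hsp90b1*, *Pdia4* and *Pdia6* lost their calls, and 11 passed without *Jun* f/f replicate 2, where the share of all genes also grew, to 3.34%. In the absence of *Jun* f/f replicate 1 the median over members was -0.08, 28 of 36 differences lay below 0, against 49.8% of genes, and *Jun* f/f replicate 2 was above both *Jun* delta mu arrays for 21 of 36, where 33.3% of all genes gave that order.

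**Figure D2:**
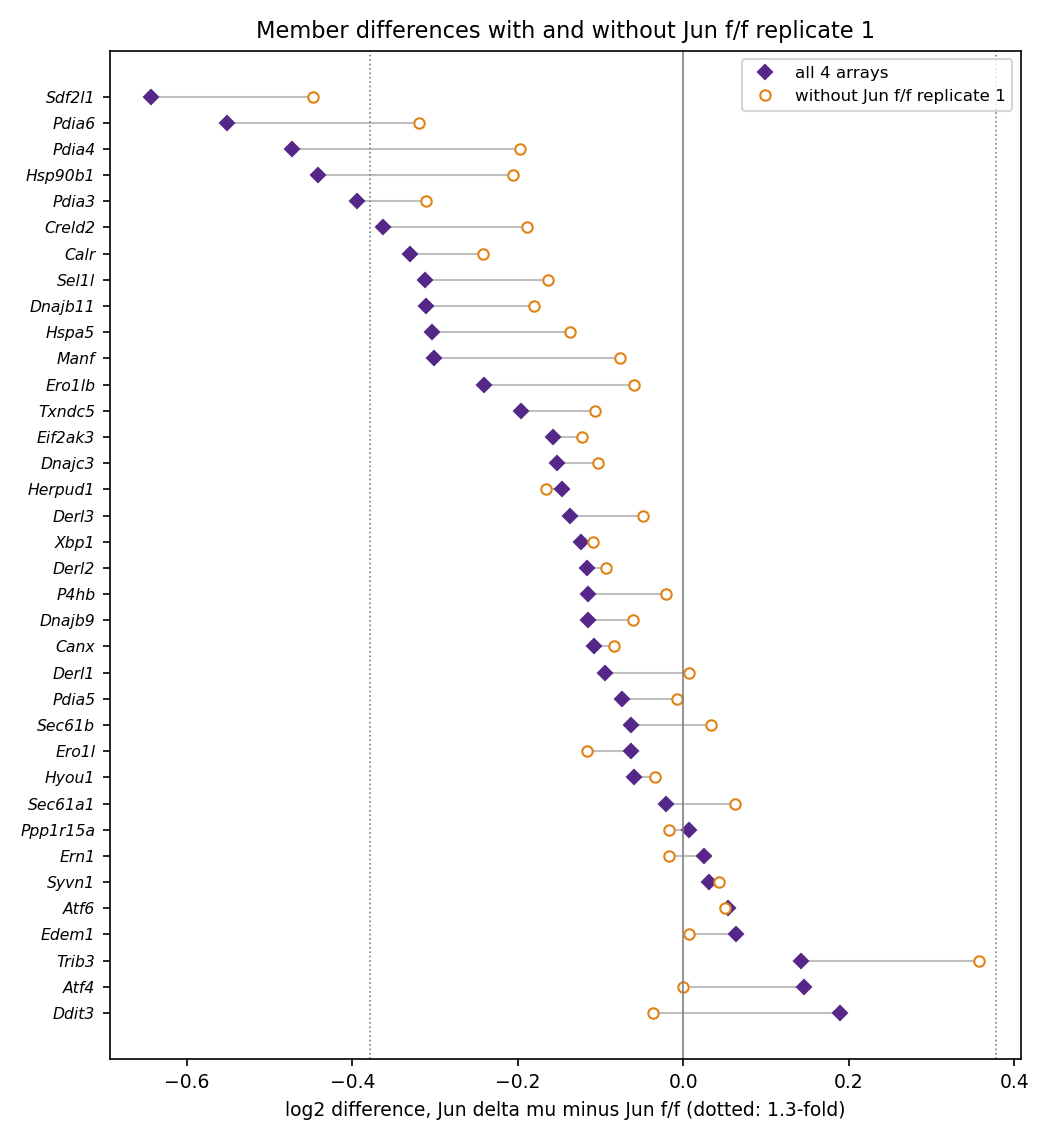
Log2 difference, Jun delta mu minus Jun f/f, of each member with all 4 arrays (diamonds) and without Jun f/f replicate 1 (open circles); dotted lines mark 1.3-fold. With all arrays 5 members lie beyond the line on the left, and without that array Sdf2l1 alone does, at -0.45.

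By the brightest probe set, all 9 chaperones and co-chaperones had both *Jun* delta mu values below both *Jun* f/f values. Over all genes 15.9% gave that order. The median difference of the 9 was -0.30 (-0.14 without *Jun* f/f replicate 1), with a range of -0.64 to -0.06. The 9 include *Hsp90b1*, *Sdf2l1* and *Hspa5*, which the study picked from the same arrays. *Sdf2l1* (chr16:17130138-17132383), which encodes a partner of ER DnaJ proteins, had the largest difference of all members. It gave 8.26 and 8.35 in *Jun* delta mu hearts, against 9.14 and 8.75 in *Jun* f/f hearts (means 8.30 ± 0.06 and 8.95 ± 0.28, SD, n = 2 each; difference -0.64, SE 0.15, adjusted p = 0.896 by limma). Both *Jun* delta mu hearts were low, the groups did not overlap, and without *Jun* f/f replicate 1 the difference was -0.45.

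*Hsp90b1* (chr10:86690841-86705444) encodes GRP94, the HSP90 of the ER lumen, and fell by both of its probe sets. The brighter gave 12.03 and 12.09 in *Jun* delta mu hearts, against 12.73 and 12.26 in *Jun* f/f hearts (difference -0.44, SE 0.17). The second gave 11.12 and 11.18 in *Jun* delta mu hearts, against 11.89 and 11.56 in *Jun* f/f hearts (difference -0.57, SE 0.13). Neither overlapped between genotypes. Without *Jun* f/f replicate 1 the differences were -0.21, no longer past the threshold, and -0.41, still past it.

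*Hspa5* (chr2:34772090-34776529), the gene of BiP, was the brightest member, and its 3 probe sets did not give the same call. The brightest gave 12.94 and 12.98 in *Jun* delta mu hearts, against 13.43 and 13.10 in *Jun* f/f hearts, a difference of -0.30 that missed the threshold on both fold and p (SE 0.13). A second probe set of nearly the same signal gave 12.83 and 12.94 in *Jun* delta mu hearts, against 13.57 and 13.12 in *Jun* f/f hearts, and passed it (difference -0.46, SE 0.16). On both, *Jun* f/f replicate 1 was well above an otherwise narrow set of values, and the differences without it were -0.14 and -0.23. The dimmest probe set overlapped between genotypes (-0.24, and 0.04 without that array).

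The other chaperones are named here after their values were seen. *Calr*, a lectin chaperone and calcium store of the ER lumen, had 11.79 and 11.91 in *Jun* delta mu hearts, against 12.27 and 12.10 in *Jun* f/f hearts, and its difference of -0.33 (SE 0.11) was short of 1.3-fold. Its genotypes did not overlap, and the difference was -0.24 without *Jun* f/f replicate 1. *Dnajb11*, a BiP co-chaperone, differed by -0.31 (-0.18 without that array), and *Canx*, the membrane-bound relative of calreticulin, by -0.11 (-0.08 without it). *Dnajb9*, *Dnajc3* and *Hyou1*, which serve BiP as co-chaperones or nucleotide exchange factor, lay between -0.15 and -0.06. For *Dnajc3* the groups only just separated, with 9.52 and 9.72 in *Jun* delta mu hearts, against 9.83 and 9.73 in *Jun* f/f hearts. Dimmer probe sets of *Dnajc3*, *Hyou1* and *Canx* also included ones that overlapped between genotypes. A *Dnajc3* probe set went from -0.34 to 0.02 without *Jun* f/f replicate 1, and a *Hyou1* probe set differed by 0.03 (-0.12 without that array).

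The enzymes that make and rearrange disulfide bonds followed the chaperones by the brightest probe set. Below 0 lay 8 of 8, against 47.8% of genes, with a median of -0.22 (-0.11 without *Jun* f/f replicate 1). The genotypes did not overlap for 5 of the 8, against 15.9% of genes. Past the threshold as lower were 3, against 0.786% of genes, and these 3 are among the genes that the study picked from the same arrays. *Pdia6* (chr12:17266589-17284785), a protein disulfide isomerase, had 10.19 and 10.13 in *Jun* delta mu hearts, against 10.95 and 10.48 in *Jun* f/f hearts (means 10.16 ± 0.04 and 10.71 ± 0.33, SD, n = 2 each; difference -0.55, SE 0.17). *Pdia3* (chr2:121413902-121438687), the isomerase that works with calreticulin and calnexin, had 11.17 and 11.09 in *Jun* delta mu hearts, against 11.61 and 11.44 in *Jun* f/f hearts (difference -0.39, SE 0.10). *Pdia4* (chr6:47796141-47813512), an isomerase found in complexes with BiP, had 8.43 and 8.37 in *Jun* delta mu hearts, against 9.15 and 8.59 in *Jun* f/f hearts (difference -0.47, SE 0.19). None of the 3 overlapped, but the evenness of the control pair differed: the *Jun* f/f arrays of *Pdia3* were 0.17 apart, and those of *Pdia4* 0.55.

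Without *Jun* f/f replicate 1 the differences were -0.32 for *Pdia6*, -0.31 for *Pdia3* and -0.20 for *Pdia4*, all under 1.3-fold. The second probe sets of *Pdia4* and *Pdia6*, dim at mean signals of 4.49 and 5.16, gave 0.03 and 0.15 and overlapped between genotypes. The remaining 5 enzymes, *Pdia5*, *P4hb*, *Txndc5* and the oxidases *Ero1l* and *Ero1lb* that recharge the isomerases, had differences of -0.24 to -0.06 and none past the threshold. *Ero1lb*, the largest of these, rested on *Jun* f/f replicate 1: it had 6.84 and 6.85 in *Jun* delta mu hearts, against 7.27 and 6.91 in *Jun* f/f hearts, and its difference was -0.06 without that array. Dimmer probe sets differed in direction, at -0.13 and 0.03 for *Ero1l* and at -0.35 and 0.08 for *Ero1lb*. The second *Txndc5* probe set went from -0.07 to 0.01 without that array.

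**Figure D3:**
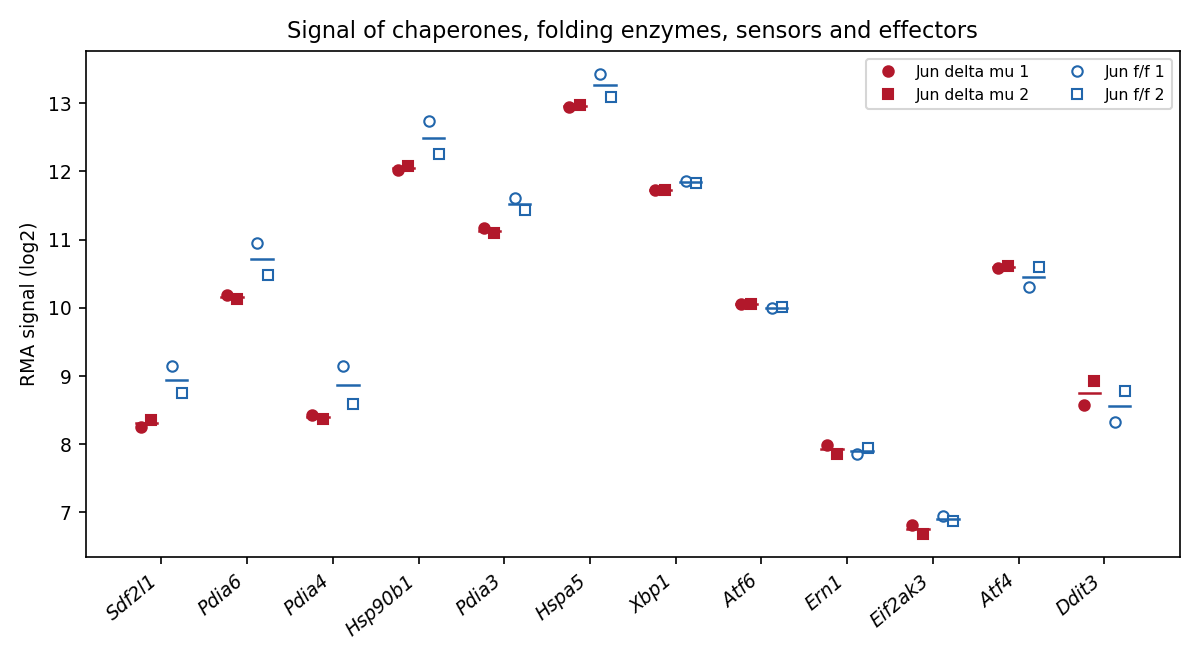
RMA signal (log2) of 12 members on each array by the brightest probe set; filled red symbols are Jun delta mu, open blue symbols Jun f/f, and bars the mean of the 2 arrays. Sdf2l1, Pdia6, Pdia4, Hsp90b1, Pdia3 and Hspa5 have both Jun delta mu arrays close together below Jun f/f. Xbp1 and Eif2ak3 also have both below, Atf6 has both above, and Ern1, Atf4 and Ddit3 overlap.

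The secreted proteins that ER stress induces, both named after their values were seen, leaned on single arrays. *Manf*, a neurotrophic-like factor held in the ER until stress releases it, had 11.24 and 11.25 in *Jun* delta mu hearts, against 11.77 and 11.32 in *Jun* f/f hearts, and its difference of -0.30 shrank to -0.08 without *Jun* f/f replicate 1. *Creld2* had 9.04 and 9.54 in *Jun* delta mu hearts, against 9.83 and 9.48 in *Jun* f/f hearts (difference -0.36, SE 0.20, and -0.19 without that array), so that 1 *Jun* delta mu array lay inside the control range. The translocon subunits *Sec61a1* and *Sec61b*, through which new chains enter the ER, differed by -0.02 and -0.06, and by 0.06 and 0.03 without that array.

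Of the 7 factors of ER-associated degradation, which return misfolded proteins to the cytosol for the proteasome, 0 passed by the brightest probe set, 5 lay below 0 and the median was -0.12 (-0.05 without *Jun* f/f replicate 1). *Sel1l* (chr12:91806043-91849157), the adaptor of the ubiquitin ligase HRD1, had 9.64 and 9.79 in *Jun* delta mu hearts, against 10.18 and 9.88 in *Jun* f/f hearts (difference -0.31, SE 0.13). One of its 5 probe sets passed, with 8.01 and 7.82 in *Jun* delta mu hearts, against 8.38 and 8.28 in *Jun* f/f hearts (difference -0.41, SE 0.11). All 5 were below 0 without overlap, from -0.41 to -0.13, and from -0.36 to -0.16 without that array. *Herpud1*, a membrane protein of the same complex, differed by -0.15, and by -0.17 without it, and *Syvn1*, the gene of HRD1, differed by 0.03. *Edem1*, *Derl1*, *Derl2* and *Derl3*, which recognise substrates or form the exit channel, lay between -0.14 and 0.06.

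None of the 3 sensors passed the threshold. *Atf6* had 10.06 on both *Jun* delta mu arrays, against 10.00 and 10.01 on the *Jun* f/f arrays, a difference of 0.05 on the log2 scale (SE 0.09). It was the one member with both *Jun* delta mu arrays above both *Jun* f/f arrays by the brightest probe set, and its other 2 probe sets, at -0.02 and 0.06, overlapped between genotypes. *Ern1* had 8.0 and 7.86 in *Jun* delta mu hearts, against 7.86 and 7.94 in *Jun* f/f hearts (difference 0.02, and -0.02 without *Jun* f/f replicate 1). *Eif2ak3* had 6.82 and 6.68 in *Jun* delta mu hearts, against 6.95 and 6.87 in *Jun* f/f hearts, without overlap (difference -0.16, SE 0.10, and -0.12 without that array). These differences were within 2 SE of 0, with 2 arrays a genotype and SEs of 0.09 to 0.10.

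Among the transcription factors and effectors, 0 of 5 passed the threshold and 4 of 5 lay above 0, with a median of 0.14 that became -0.02 without *Jun* f/f replicate 1. *Xbp1* had 11.73 and 11.72 in *Jun* delta mu hearts, against 11.86 and 11.83 in *Jun* f/f hearts (difference -0.12, SE 0.09). Its genotypes separated here, and a second probe set gave a larger difference of -0.34 (SE 0.11, and -0.24 without that array). None of its 4 probe sets tells the spliced from the unspliced form by its annotation.

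*Atf4* had 10.58 and 10.61 in *Jun* delta mu hearts, against 10.30 and 10.60 in *Jun* f/f hearts, and its difference of 0.15 was 0.00 without *Jun* f/f replicate 1. Its other 2 probe sets did not drop in that way: one had 5.47 on both *Jun* delta mu arrays, against 5.16 and 5.25 on the *Jun* f/f arrays (difference 0.26, and 0.22 without that array), and the other overlapped (0.14, and 0.30 without it). *Ddit3* had 8.57 and 8.93 in *Jun* delta mu hearts, against 8.33 and 8.78 in *Jun* f/f hearts (difference 0.19, and -0.04 without that array). By the brightest probe set both genes were lowest on the array on which the chaperones were highest. *Ppp1r15a*, the phosphatase subunit that reverses PERK signalling, differed by 0.01. *Trib3*, a pseudokinase induced by ATF4 and CHOP, differed by 0.14 with all arrays and by 0.36 without *Jun* f/f replicate 1.

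Averaged over each role, *Jun* f/f replicate 1 stood highest for the chaperones and the folding enzymes but not for the regulators. The chaperones lay at -0.16 and -0.11 on the *Jun* delta mu arrays, against 0.24 and 0.03 on the *Jun* f/f arrays, relative to each gene's own mean. The folding enzymes lay at -0.11 and -0.15 on the *Jun* delta mu arrays, against 0.25 and 0.01 on the *Jun* f/f arrays. In both roles *Jun* f/f replicate 2 was thus above both *Jun* delta mu arrays, but nearer to them than to its own replicate. Degradation factors had -0.12 and 0.02 on the *Jun* delta mu arrays, against 0.09 and 0.01 on the *Jun* f/f arrays. The sensors had 0.03 and -0.06 on the *Jun* delta mu arrays, against 0.01 and 0.02 on the *Jun* f/f arrays, and overlapped. The transcription factors and effectors had -0.02 and 0.09 on the *Jun* delta mu arrays, against -0.07 and -0.003 on the *Jun* f/f arrays.

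**Figure D4:**
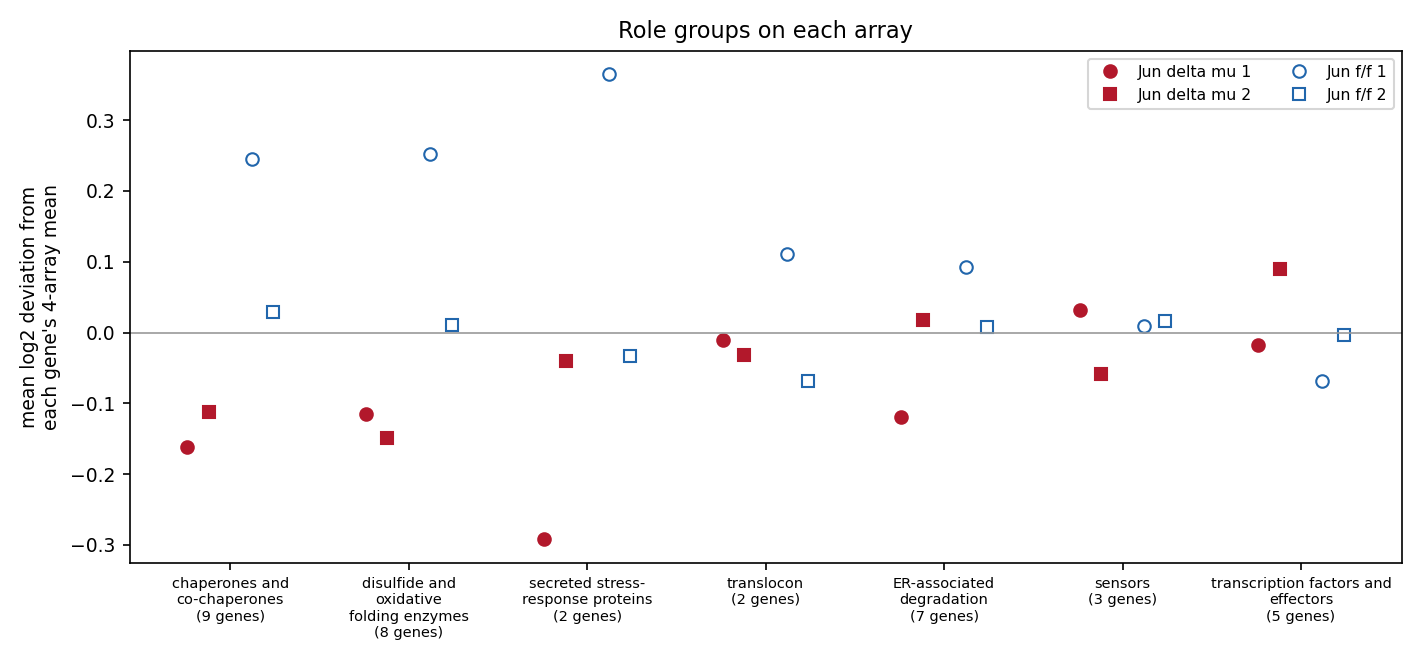
Mean log2 deviation of each role group from its genes' 4-array means, on each array; filled red symbols are Jun delta mu, open blue symbols Jun f/f. Chaperones and folding enzymes reach 0.24 and 0.25 on Jun f/f replicate 1 and lie below -0.1 on both Jun delta mu arrays, and the sensors stay within 0.06 of 0 on all arrays.

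Members with the ERSE in the promoter had a median difference of -0.27 (10 genes, 9 below 0, 2 past the threshold), and the 21 members with a window but no ERSE had -0.12 (15 below 0, 3 past it). With *Jun* f/f replicate 1 left out these medians were -0.12 and -0.09. The ranges overlapped, at -0.55 to 0.03 with the element and -0.64 to 0.19 without it. *Hspa5*, *Hsp90b1*, *Pdia6* and *Calr*, all with the element, were at -0.30 to -0.55, but so were *Sdf2l1*, *Pdia3* and *Pdia4* without it at -0.39 to -0.64, and *Syvn1* carried it with a difference of 0.03. The difference between the 2 sets of promoters was not tested.

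Further genes of the pathway, from lists chosen beside the members, had medians nearer to 0. Of 24 other ER folding genes 0 passed the threshold in either direction; 20 lay below 0, with a median of -0.07, and 11 did without *Jun* f/f replicate 1, with a median of 0.02. Of 20 measured degradation factors outside the members 0 passed (median 0.01), of 27 genes of translocation and N-glycosylation 0 (median -0.08, and -0.03 without that array), and of 15 further regulators of the unfolded protein response 0 (median -0.01). Among 24 targets of ATF4 and amino acid limitation, 1 fell and 0 rose: *Psat1*, an enzyme of serine synthesis, had 4.96 and 4.79 in *Jun* delta mu hearts, against 5.97 and 5.36 in *Jun* f/f hearts (difference -0.79, and -0.48 without that array). The median of that list was 0.05.

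The cytosolic heat shock proteins, the chaperones outside the ER, had a different order of arrays. Over 19 genes they lay at -0.16 and 0.15 on the *Jun* delta mu arrays, against -0.09 and 0.10 on the *Jun* f/f arrays, so that replicate 2 of each genotype was high and the genotypes overlapped. None of the 19 passed the threshold, and the median difference was -0.04. Without *Jun* f/f replicate 1 it was -0.12, where the ER members had -0.08. In that setting 14 of the 19 lay below 0, against 49.8% of genes. *Jun* f/f replicate 2 was above both *Jun* delta mu arrays for 11 of the 19, against 33.3% of genes.

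Some other measures moved across the arrays in part as the chaperones did. Smooth muscle markers were lower in *Jun* delta mu hearts for 4 of 4 genes, with a mean level of -0.45 and -0.05 on the *Jun* delta mu arrays, against 0.40 and 0.10 on the *Jun* f/f arrays, and a median difference of -0.49 (-0.37 without *Jun* f/f replicate 1). Of these *Cnn1* passed the threshold (difference -0.67). Endothelial markers lay at -0.03 and -0.09 on the *Jun* delta mu arrays, against 0.02 and 0.10 on the *Jun* f/f arrays. Of these, 4 of 5 were lower without overlap, where 15.9% of all genes gave that order. Their median was -0.09, and -0.11 without *Jun* f/f replicate 1. None of the 5 passed the threshold with all arrays, and *Kdr* did without that one, at -0.38. Markers of B and plasma cells, cells rich in ER chaperones, were dim throughout (mean signals of 3.59 to 6.24 over 7 genes), with levels of 0.01 and -0.11 on the *Jun* delta mu arrays, against 0.08 and 0.03 on the *Jun* f/f arrays. Fibroblast markers, from a secretory cell type, lay at 0.01 and 0.07 on the *Jun* delta mu arrays, against 0.02 and -0.10 on the *Jun* f/f arrays. Of these 7 genes, 3 were higher without overlap (17.8% of all genes). Above 0 lay 5 of the 7, and 7 without *Jun* f/f replicate 1. Medians were -0.001 over 5 macrophage, 0.15 over 6 T cell and thymus and 0.31 over 2 adipocyte markers. Without that array they were 0.17, 0.12 and 0.11. Immediate early genes had a median of -0.04 with *Egr2* alone past the threshold (0.41), and clock genes had a median of -0.03 with 0 of 14 past it. The 3′ minus 5′ signal of the *Gapdh* control probe sets, a sign of RNA integrity, was -0.12 and -0.13 for *Jun* delta mu, against -0.20 and -0.15 for *Jun* f/f. That of beta-actin was 1.06 and 1.04 for *Jun* delta mu, against 0.99 and 0.98 for *Jun* f/f, and that of the transferrin receptor was 1.97 and 1.73 for *Jun* delta mu, against 1.74 and 2.21 for *Jun* f/f. The part of these measures in the results for the ER genes was not tested.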

How the data were processed

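Total RNA of hearts was labelled with biotin and hybridised to Affymetrix mouse expression arrays, 1 array a sample. The deposited values are log2 signals that the authors obtained with RMA (oligo, per the labels), which corrects background, normalizes quantiles between arrays and summarises the probes of a set; this makes the overall distributions of the arrays alike and compresses small differences of dim probe sets. Of 45101 probe sets, 64 controls were left out, with 0 missing values. Names came from the platform annotation (34945 probe sets with 1 name, 932 with several, 9160 with none), and 2 members were found through RefSeq synonyms. Array medians were 5.45 to 5.47 and precision is limited by their number, 4.

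*Jun* delta mu was compared with *Jun* f/f in limma 3.58.1 (R 4.3.3; lmFit, eBayes, two-sided), fitted on all 45037 probe sets with Benjamini-Hochberg adjustment over them. The study's threshold was taken as over 1.3-fold with an unadjusted p under 0.05. The brightest probe set stood for a gene. By the methods, the arrays came from 2 mice of each genotype. The limma p-values set each difference against a spread between these mice that was moderated over all probe sets. The prior from all probe sets had 3.459 degrees of freedom, against 2 from the probe set itself. Only the methods' t-test used each probe set's own spread alone. The members, lists and named genes were chosen with earlier results of these data known. Values per array are given for members past the threshold, the sensors, *Xbp1*, *Atf4* and *Ddit3*; others are named after their values were seen. The fit was tested on simulated data. Promoters were RefSeq's (GRCm38.p6). Figures used Python 3.11.15 and matplotlib 3.10.9.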

Additional observations from a re-analysis of the deposited data

How the results depend on the processing

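Trended robust prior, array weights, quantile and cyclic loess normalization and median centring left the calls and directions tested as they were. The array weights were equal within a genotype, at 0.707 for both *Jun* f/f and 1.414 for both *Jun* delta mu arrays. They thus could not mark out *Jun* f/f replicate 1. RMA had already normalized quantiles, so that quantile normalization and median centring could change little. The methods' t-test gave 89 higher and 111 lower probe sets over the array, in place of 256 and 432 by limma, and 0 lower members by probe set and by gene, in place of 8 and 5. With the dimmest 40% of probe sets left out, 158 were higher over the array, and *Pdia4* lost its call. With the mean over all probe sets of a gene, 2 members were lower, *Pdia3*, *Pdia4* and *Pdia6* were not past the threshold (-0.30, -0.22 and -0.20), and 2 genes that are no members had an adjusted p under 0.05 in limma.

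Leaving out each array in turn, with the lone array of a genotype assumed to vary like the other genotype, gave 320 to 1466 higher and 419 to 1986 lower probe sets over the array, 0 to 1 higher and 2 to 22 lower member probe sets, and 1 to 11 lower members. The highest counts came without *Jun* f/f replicate 2 and the lowest member counts without *Jun* f/f replicate 1. Medians ranged from -0.42 to -0.14 for chaperones, -0.35 to -0.11 for folding enzymes, -0.043 to 0.059 for sensors and -0.017 to 0.15 for transcription factors and effectors. Without *Jun* delta mu replicate 1 or 2, *Hsp90b1*, *Pdia4* and *Pdia6* lost their calls by the brightest probe set each time. The second *Hsp90b1* probe set kept its call, and *Pdia3* lost its own without replicate 2 (-0.36). *Ern1* ranged from -0.043 (without *Jun* delta mu replicate 1) to 0.092 and was -0.017 in the absence of *Jun* f/f replicate 1, and *Ddit3* ranged from -0.036, in the absence of that array, to 0.41. The causes were not tested.

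Same-numbered arrays did not deviate together over all probe sets (r = 0.0281). With 2 arrays a genotype, this correlation cannot tell whether the numbers pair the hearts. The study used littermates, but which hearts shared a litter was not stated. With the replicate number as a block, 6 member probe sets and 4 members were lower, and the brighter *Hsp90b1* probe set and the *Hspa5* probe set that had passed were not past the threshold. The other 6 member probe sets kept their calls.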

Other observations

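*Trib3* had the highest difference of the 36 members once *Jun* f/f replicate 1 was left out, at 0.36, just under 1.3-fold. It had 7.07 and 6.95 in *Jun* delta mu hearts, against 7.08 and 6.65 in *Jun* f/f hearts, and its genotypes overlapped. The dimmest probe sets of *Ern1* had mean signals under 4, and one of them gave 3.91 and 4.14 in *Jun* delta mu hearts, against 3.59 and 3.82 in *Jun* f/f hearts (difference 0.32, SE 0.13), the highest difference among the 88 probe sets. *Alas2*, the haem synthesis enzyme of red cell precursors, fell to 10.16 and 9.62 in *Jun* delta mu hearts, against 10.45 and 10.32 in *Jun* f/f hearts (difference -0.49, past the threshold, and -0.43 without *Jun* f/f replicate 1, not past it). All 3 were named after their values were seen.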
